A study of Mus musculus with 6 samples.

Results

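The vacuolar proton pump (V-ATPase) and the chloride-proton exchangers of endosomes and lysosomes were examined in mouse testis as 32 genes, out of 55711 entries in the deposited table. The genes were taken by name: 13 subunits of the V1 sector, 10 of the V0 sector, 3 accessory proteins, and 6 genes for intracellular ClC exchangers and their partner. All 32 had exactly 1 entry. RNA of 3 testis libraries labelled Tmc7 knockout was compared with RNA of 3 control libraries labelled heterozygote, all on the C57BL6 strain, so the controls also carry 1 altered Tmc7 allele. The labels do not describe the allele or the age of the mice. They also do not say if each library is a different animal, so a p-value here covers the spread among 6 samples, part of which may be technical. Levels are in FPKM, that is fragments per kilobase of a gene's exons, scaled for library size.

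The V-ATPase uses ATP to pump protons into organelles. Its V1 sector, in the cytosol, splits ATP and turns a rotor, and its V0 sector, in the membrane, carries the protons through. Several subunits exist as paralogues, some general and some restricted to cells such as osteoclasts, kidney intercalated cells or male germ cells. ClC exchangers swap chloride for protons and so carry the counter-charge that lets the pump go on. In spermatids the pump acidifies the acrosome, a lysosome-related organelle that is built from vesicles of the Golgi, and the series title links TMC7 to vesicles of the trans-Golgi network.

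Gene reads recovered from the steps in the deposited values summed to 17397662 to 19343479 with the knockout label and 17059486 to 18629233 in controls. The same steps imply the library sizes used for scaling. These were 1.734e+07 to 1.950e+07 reads with the knockout label and 1.645e+07 to 1.921e+07 reads in controls. Sum and implied size differ within a library, so the FPKM were not scaled by these sums. Tmc7 itself was at 43.8, 41.9 and 35.1 FPKM in the knockout-labelled libraries, against 39.1, 37.7 and 37.2 FPKM in controls, so its transcript level does not check the labels, and directions below rest on the labels alone. The labelled tissue showed in its germ-cell markers: Prm1, a protamine of spermatids, was at 2499 ± 1155 FPKM in the libraries labelled knockout and 3502 ± 1105 FPKM in controls (SD, n = 3 each). Of 7 markers of proton-secreting cells of kidney and epididymis, 6 averaged below 0.5 FPKM, Foxi1, Slc4a9 and Slc26a4 among them. The other one, Car2, a carbonic anhydrase, averaged 52 FPKM over all libraries. Of 12 markers of epididymal principal cells, 11 averaged below 0.5 FPKM, with Lcn5 listed at 0 in all 6 libraries, and Rnase10 averaged 2.88 FPKM.

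No gene of the pump or of the exchangers passed the test for a difference between the groups. Of the 32 genes, 28 had a mean of at least 0.5 FPKM and entered the test over 19168 genes. By limma-trend on log2(FPKM + 1) with Benjamini-Hochberg adjustment at 0.05, 0 members were called higher and 0 were called lower with the knockout label, and the same test called 0% of all genes in either direction. The adjusted p of the members ran from 0.868 to 0.989. At an unadjusted p under 0.05 there was 1 member, which was higher, where 3.87% of all genes passed that level, 1.48% higher and 2.38% lower. By limma-voom on the recovered reads 29 members were tested and again 0 were called. At an unadjusted p under 0.05 it had 1 member, 3.45%, beside 3.84% of all genes. Groups did not overlap for 1 of the 28, Atp6v0c, and for 8.56% of all genes, 4.15% higher and 4.41% lower. The members' log2 differences ran from -0.21 for Atp6v1e2 to 0.39 for Atp6v0c, with a median of 0.048, beside a median of -0.0058 over all genes tested. The median standard error of a member's difference was 0.12. Bulk RNA cannot tell fewer cells of a type from less RNA per cell, and this holds for each value below.

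**Figure D1:**
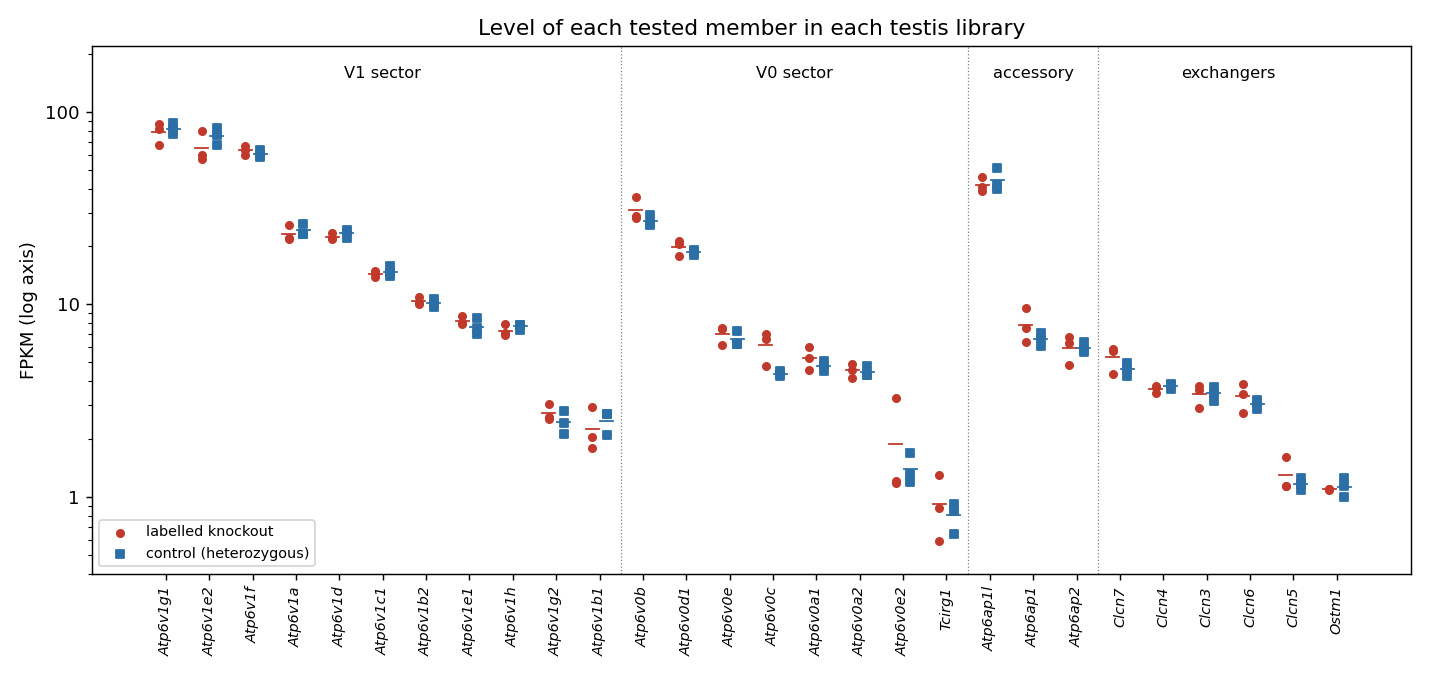
FPKM of the 28 tested members on a log axis, with 1 symbol per library (circles, labelled knockout; squares, heterozygous control), horizontal bars at group means and genes grouped by sector. Means of all 6 libraries span from 0.862 FPKM for Tcirg1 to 80.0 FPKM for Atp6v1g1, and the groups overlap for every gene plotted except Atp6v0c.

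The levels of the 28 tested genes are drawn by library in the plot of member levels. The motor of the V1 sector is a ring of A and B subunits around a rotor shaft of D and F. Atp6v1a, the catalytic subunit A, was at 25.9, 22.2 and 21.9 FPKM in the knockout-labelled libraries, against 23.1, 23.3 and 26.3 FPKM in controls. The groups overlapped, with the highest value in control library 3 and the lowest in library 3 labelled knockout. The log2 difference was -0.056 ± 0.10 (SE), and its 95% interval ran from -0.30 to 0.18 (limma adjusted p = 0.913). Of the nucleotide-binding B subunits, the general form Atp6v1b2 was at 10.2, 10.9 and 10.1 FPKM in the knockout-labelled libraries, against 10.6, 10.1 and 9.73 FPKM in controls. Atp6v1b1, the form known from kidney and epididymis, was lower in every library, at 2.26 ± 0.599 FPKM in the libraries labelled knockout and 2.49 ± 0.346 FPKM in controls (SD, n = 3 each).

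In the rotor shaft, Atp6v1d was at 21.9, 22 and 23.5 FPKM in the knockout-labelled libraries, against 24.5, 22.2 and 23.8 FPKM in controls. Its 3 knockout-labelled values lay within or below the control range and overlapped it. Atp6v1f was at 59.9, 63.3 and 66.8 FPKM in the knockout-labelled libraries, against 63.3, 59.7 and 58.3 FPKM in controls, with the highest value in library 3 labelled knockout and the lowest in control library 3. Its transcripts share 18.4% of their words with another gene below 1 FPKM. The log2 differences of Atp6v1d and Atp6v1f were -0.064 (95% interval -0.26 to 0.13) and 0.066 (95% interval -0.14 to 0.27). Both intervals lie within 0.3 of 0 on the log2(FPKM + 1) scale.

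The peripheral stalks hold the ring still while the rotor turns, and each is a pair of E and G subunits. Atp6v1e2 (chr17:86944109-86947887 on GRCm38, minus strand) encodes the E form that is known in mouse for its expression in testis and its place in the acrosome. It was at 79.4, 56.6 and 59.9 FPKM in the knockout-labelled libraries, against 82.9, 76.2 and 67.1 FPKM in controls. Libraries 2 and 3 labelled knockout had the 2 lowest values, and library 1 labelled knockout lay between control libraries 1 and 2. The log2 difference was -0.21 ± 0.15 (SE), and its 95% interval ran from -0.57 to 0.14 (limma adjusted p = 0.868), the most negative difference among the members. An antisense lincRNA in GENCODE M21 holds 26.6% of the 31-base words of the M21 transcripts of Atp6v1e2. The deposited table has no entry of that lincRNA's name and a shorter model of Atp6v1e2. The extent to which reads of the pair are mixed in the deposited value is therefore not known. The general form Atp6v1e1 was at 7.99, 8.74 and 7.95 FPKM in the knockout-labelled libraries, against 7.53, 7.04 and 8.47 FPKM in controls, with overlapping groups and a log2 difference of 0.090 (standard error 0.10, limma adjusted p = 0.872). Atp6v1g1, the general G subunit and the member with the highest FPKM, was at 86.3, 67.2 and 81.4 FPKM in the knockout-labelled libraries, against 87.7, 76.7 and 80.9 FPKM in controls. Its lowest value was that of library 2 labelled knockout, and the other 5 lay at 76.7 FPKM or above. Of its 31-base words, 24% also occur in the pseudogene Gm13453, which was below 1 FPKM in every library. Atp6v1g2, a form known from brain, was at 2.73 ± 0.274 FPKM in the libraries labelled knockout and 2.45 ± 0.332 FPKM in controls (SD, n = 3 each). Atp6v1g3, known from kidney, had 2 reads in library 2 labelled knockout and 0 reads in the other 5 libraries, where 0 allows up to 3 reads, or 0.0815 to 0.0966 FPKM, a limit that covers counting error only.

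Subunits C and H join the stalks to the membrane sector and set whether the 2 sectors stay together. Atp6v1c1 was at 14.9, 13.9 and 14.5 FPKM in the knockout-labelled libraries, against 15.8, 14.6 and 14 FPKM in controls. All 6 values lay within a narrow band and the groups overlapped. Its paralogue Atp6v1c2 had a mean under 0.5 FPKM and was not tested, with 15 to 28 reads per library. Atp6v1h was at 7.32 ± 0.523 FPKM in the libraries labelled knockout and 7.69 ± 0.249 FPKM in controls (SD, n = 3 each), with a log2 difference of -0.063 and a 95% interval from -0.28 to 0.15. Of the 11 tested V1 members, 4 had a positive and 7 a negative difference, with a median of -0.056.

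**Figure D2:**
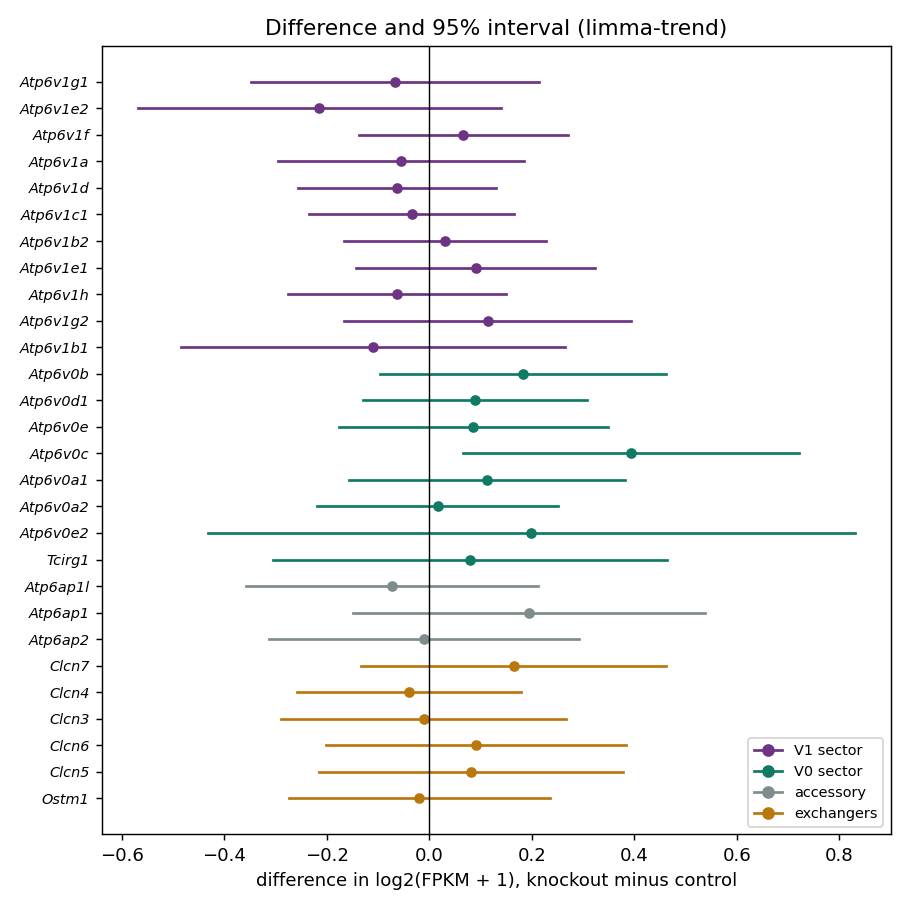
Difference in log2(FPKM + 1) of each tested member, libraries labelled knockout minus controls, with its 95% interval from limma-trend (3 libraries per group) and colours for the sectors. The interval of Atp6v0c runs from 0.07 to 0.72 and lies to the right of 0 before adjustment for 19168 genes, and every other interval includes 0.

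In the V0 sector, a ring of proteolipids c and c″ carries protons past subunit a. Atp6v0c (chr17:24163866-24169702, minus strand) encodes the main proteolipid of the ring and was at 4.77, 7 and 6.61 FPKM in the knockout-labelled libraries, against 4.51, 4.36 and 4.24 FPKM in controls. All 3 libraries labelled knockout lay above all 3 controls, by a small margin in library 1 and a wider one in libraries 2 and 3. The log2 difference was 0.39 ± 0.14 (SE), and its 95% interval ran from 0.066 to 0.72. The unadjusted p was 0.025 and the limma adjusted p 0.868, so the difference did not pass. The ratio of the means was 1.40 and the gene had between 251 and 436 reads per library. Other genes hold 11.9% of its 31-base words, nearly all of them the pseudogene Atp6v0c-ps2, which was below 1 FPKM in every library, so its value is uncertain to that extent.

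Atp6v0b, the proteolipid c″, was at 28.6, 28.2 and 36.1 FPKM in the knockout-labelled libraries, against 25.7, 29.2 and 26.1 FPKM in controls. Library 3 labelled knockout had the highest value, and the other 5 overlapped. The log2 difference was 0.18 ± 0.12 (SE), and its 95% interval ran from -0.10 to 0.46 (limma adjusted p = 0.868). Its exons overlap the antisense gene Gm12841 over 11.8% of their length, and the sources used here do not give whether strand was used in counting.

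Atp6v0d1, which couples the rotor shaft to the proteolipid ring, was at 17.9, 20.5 and 21.4 FPKM in the knockout-labelled libraries, against 18.6, 18.2 and 19.1 FPKM in controls. Libraries 2 and 3 labelled knockout were above all controls and library 1 below them, with a log2 difference of 0.089 (95% interval -0.13 to 0.31). Atp6v0d2, a form of osteoclasts and kidney, had 1 to 6 reads per library. Atp6v0e, a small membrane subunit, was at 6.19, 7.53 and 7.46 FPKM in the knockout-labelled libraries, against 6.21, 6.26 and 7.29 FPKM in controls. Its paralogue Atp6v0e2 was at 3.29, 1.21 and 1.18 FPKM in the knockout-labelled libraries, against 1.69, 1.32 and 1.20 FPKM in controls. The value of library 1 labelled knockout stood apart from the other 5, and the log2 difference of 0.20 became -0.12 without that library.

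Subunit a sends the pump to a given organelle. Atp6v0a1 and Atp6v0a2, the forms known from synaptic vesicles and from the Golgi and endosomes, had similar FPKM. Atp6v0a1 was at 5.27 ± 0.708 FPKM in the libraries labelled knockout and 4.78 ± 0.301 FPKM in controls, and Atp6v0a2 was at 4.54 ± 0.369 FPKM in the libraries labelled knockout and 4.47 ± 0.269 FPKM in controls (SD, n = 3 each). Their log2 differences were 0.11 and 0.016, with 95% intervals from -0.16 to 0.38 and -0.22 to 0.25. Tcirg1, the a3 form that osteoclasts place at their acid-secreting border, was at 0.922 ± 0.358 FPKM in the libraries labelled knockout and 0.802 ± 0.145 FPKM in controls (SD, n = 3 each). The kidney form Atp6v0a4 had 1 to 4 reads per library. All 8 tested V0 members had a positive difference, with a median of 0.10, where 48.6% of all genes tested were positive. With the late spermatid level described below as a covariate, 3 of the 8 were negative and near 0. They were Atp6v0a2 at -0.014, Tcirg1 at -0.021 and Atp6v0e at -0.015. The part of that level in the V0 differences was not tested. Only Atp6v0c among the 8 had groups that did not overlap. Summed over the 10 V0 genes, levels were 70.2, 76.7 and 83.5 FPKM in the libraries labelled knockout, against 66.2, 70.3 and 68.0 FPKM in controls. On this scale library 1 labelled knockout lay just below control library 2. Per kilobase of principal transcript, a scale explained with the paralogue shares below, the V0 sums were 117.4, 128.8 and 142.5 FPKM in the libraries labelled knockout, against 109.4, 117.3 and 111.4 FPKM in controls, and the groups did not overlap, with library 1 labelled knockout and control library 2 almost level. Neither sum was tested. Summed over the 13 V1 genes, levels were 320.6, 276.8 and 298.5 FPKM in the libraries labelled knockout, against 328.5, 303.9 and 301.1 FPKM in controls, and the groups overlapped there and per kilobase of principal transcript.

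Accessory proteins help assemble the pump and move it through the secretory pathway. Atp6ap1 encodes Ac45, and Atp6ap1l encodes a protein resembling it. Atp6ap1l was at 45.8, 38.7 and 40.6 FPKM in the knockout-labelled libraries, against 50.9, 41.7 and 39.7 FPKM in controls. Control library 1 had the highest value and the groups overlapped, with a log2 difference of -0.074 (standard error 0.12, limma adjusted p = 0.906). Atp6ap1 was at 7.83 ± 1.64 FPKM in the libraries labelled knockout and 6.64 ± 0.522 FPKM in controls (SD, n = 3 each), with a log2 difference of 0.19 and a 95% interval from -0.15 to 0.54. Atp6ap2, the prorenin receptor, was at 5.96 ± 0.997 FPKM in the libraries labelled knockout and 5.97 ± 0.384 FPKM in controls (SD, n = 3 each) and had a log2 difference of -0.010.

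The exchangers were expressed at lower levels than most pump subunits. Clcn7, the lysosomal exchanger, was at 5.33 ± 0.826 FPKM in the libraries labelled knockout and 4.62 ± 0.371 FPKM in controls (SD, n = 3 each), with a log2 difference of 0.16 (standard error 0.13, limma adjusted p = 0.868). Ostm1, the membrane protein that Clcn7 needs to be stable, was at 1.10 ± 0.00574 FPKM in the libraries labelled knockout and 1.13 ± 0.128 FPKM in controls, and its log2 difference was -0.020. The endosomal exchangers Clcn3 and Clcn4 had similar FPKM. Clcn3 was at 3.43 ± 0.462 FPKM in the libraries labelled knockout and 3.46 ± 0.280 FPKM in controls, and Clcn4 was at 3.66 ± 0.179 FPKM in the libraries labelled knockout and 3.79 ± 0.121 FPKM in controls (SD, n = 3 each). Clcn6 of late endosomes was at 3.34 ± 0.556 FPKM in the libraries labelled knockout and 3.05 ± 0.174 FPKM in controls, and Clcn5, known for endocytosis in kidney tubules, was at 1.30 ± 0.273 FPKM in the libraries labelled knockout and 1.17 ± 0.0834 FPKM in controls. The log2 differences of the 6 genes lay between -0.040 and 0.16, with 3 positive and 3 negative.

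Where a subunit has paralogues, the share of each in their summed FPKM shows which form the testis uses most at the RNA level. At the E position Atp6v1e2 held 90.9%, 86.6% and 88.3% in the libraries labelled knockout and 91.7%, 91.5% and 88.8% in controls of the summed FPKM of Atp6v1e1 and Atp6v1e2. This share depends on the length by which reads are divided. The deposited gene length of Atp6v1e1 was 4110 bases and covers all its exons, whereas its principal GENCODE M21 transcript has 1312 bases, and for Atp6v1e2 these were 1005 and 1277 bases. The deposited model of Atp6v1e2 is shorter than its M21 transcript, and the reads are those assigned to the deposited model. Per kilobase of principal transcript, a scale added after the data were seen, all reads of a gene are divided by the length of that transcript. This can overstate a level where reads fall on other exons. It can understate Atp6v1e2, whose reads over 1005 bases are divided by 1277. On this scale the share of Atp6v1e2 was 71.4%, 61.9% and 65.4% in the libraries labelled knockout and 73.4%, 73.1% and 66.5% in controls. Atp6v1e2 thus held most of the E level in each library on both scales, while its share differed by scale more than by group. On both scales libraries 2 and 3 labelled knockout had the 2 lowest shares, and the groups overlapped.

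**Figure D3:**
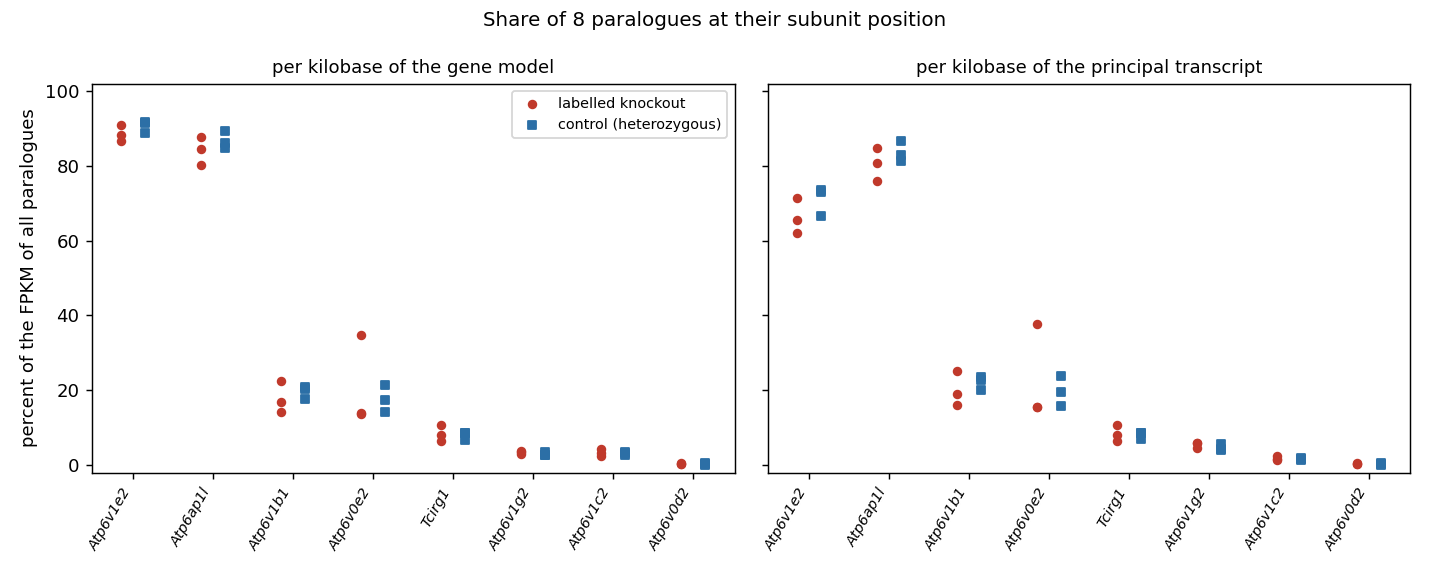
Share, in percent, of 8 paralogues in the summed FPKM of their subunit position in each library (circles, labelled knockout; squares, control), per kilobase of the deposited gene model on the left and of the principal transcript on the right. Atp6v1e2 lies at 86.6% to 91.7% on the left and at 61.9% to 73.4% on the right, Atp6ap1l leads its position in every library in both panels, and the other 6 stay at 37.8% or below.

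At the Ac45 position Atp6ap1l held 84.1 ± 3.83% in the libraries labelled knockout and 86.7 ± 2.33% in controls per kilobase of gene model (SD, n = 3 each). Per kilobase of principal transcript it held 80.5 ± 4.49% in the libraries labelled knockout and 83.6 ± 2.78% in controls. At the other positions of the pump a general form led. Per kilobase of gene model, Atp6v0d1 held 99.6 ± 0.103% in the libraries labelled knockout and 99.6 ± 0.271% in controls of the d level, and Atp6v1c1 held 96.7 ± 1% in the libraries labelled knockout and 96.8 ± 0.384% in controls of the C level. Atp6v1g1 held 96.6 ± 0.493% in the libraries labelled knockout and 97.1 ± 0.515% in controls of the G level (SD, n = 3 each). At the B position Atp6v1b1 held 17.8 ± 4.21% in the libraries labelled knockout and 19.6 ± 1.73% in controls. At the e position Atp6v0e2 held 34.7% in library 1 labelled knockout, between 13.7% and 13.8% in the other 2, and between 14.2% and 21.3% in controls. At the a position Atp6v0a1 held 48.8%, 49% and 49.1% in the libraries labelled knockout and 47.5%, 47% and 47.8% in controls per kilobase of gene model. The groups did not overlap there, and did not on the other scale (54.8 ± 0.160% in the libraries labelled knockout and 53.3 ± 0.389% in controls; SD, n = 3 each). Of the shares of the other members, none had groups without overlap on either scale. These shares were not tested. Among the 3 endosomal exchangers Clcn4 was on average ahead of Clcn3 per kilobase of gene model, though not in libraries 1 and 2 labelled knockout, at 43.8% and 40.8% in the libraries labelled knockout and 45.1% and 41.1% in controls. Per kilobase of principal transcript Clcn3 was ahead in all 6 libraries, with Clcn4 at 36.2% and Clcn3 at 54.4% in the libraries labelled knockout and Clcn4 at 37.1% and Clcn3 at 54.5% in controls.

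The order of levels across the pump also moved with the length. By gene model the leading members were Atp6v1g1, Atp6v1e2, Atp6v1f and Atp6ap1l, and by principal transcript they were Atp6v1f, Atp6v1g1, Atp6v0b and Atp6v1e2. Atp6v1h went up from rank 12 to rank 7, and Atp6v0c from rank 16 to rank 13, at 17.5 per kilobase of principal transcript in the libraries labelled knockout and 12.5 in controls. Both rises assume that all reads of the gene fall on that transcript. The group difference of a single gene does not depend on this choice, since a gene has 1 length in all libraries, apart from the weight of the pseudocount. Sums and shares over several genes do depend on it, as the V0 sums above show. The 5 genes ranked lowest by gene model, Tcirg1, Atp6v1c2, Atp6v0d2, Atp6v0a4 and Atp6v1g3, were also the 5 lowest by principal transcript.

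The start-site regions of the E pair are shown because Atp6v1e2 and Atp6v1e1 are a pair in which the form known from testis leads. Sequences are those of RefSeq on GRCm38.p6, 250 bases before to 50 after the start, 5′ to 3′ on the gene's strand, with CG dinucleotides in capitals. Atp6v1e2 lies on chromosome 17 (minus strand, chr17:86947838-86948137) and Atp6v1e1 on chromosome 6 (minus strand, chr6:120822649-120822948).
Atp6v1e2: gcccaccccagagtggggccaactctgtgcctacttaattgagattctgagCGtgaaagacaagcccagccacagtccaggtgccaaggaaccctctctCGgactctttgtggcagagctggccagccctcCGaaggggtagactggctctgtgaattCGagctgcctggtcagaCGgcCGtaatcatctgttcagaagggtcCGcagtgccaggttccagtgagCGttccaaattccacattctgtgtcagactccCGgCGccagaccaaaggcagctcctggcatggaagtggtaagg
Atp6v1e1: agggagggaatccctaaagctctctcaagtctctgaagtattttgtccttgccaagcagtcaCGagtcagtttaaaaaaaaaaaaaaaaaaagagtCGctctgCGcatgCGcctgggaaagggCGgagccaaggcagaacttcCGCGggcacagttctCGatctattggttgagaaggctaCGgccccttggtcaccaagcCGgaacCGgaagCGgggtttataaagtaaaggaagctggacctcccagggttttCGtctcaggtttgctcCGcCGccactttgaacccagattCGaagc
Atp6v1e2 had 10 CG dinucleotides and Atp6v1e1 had 16, against a median of 7 over all 32851 start-site windows. Both counts lie above that median and below the median of 17.5 over the 34 windows of the members.

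A sequence searched in all windows was CACGTG, a palindrome that is the core of the element by which TFEB and its relatives are known to act on lysosomal genes, V-ATPase subunits among them. RefSeq windows were available for 25 of the 32 members, 34 windows in all because some genes have several starts. CACGTG was in 7 of the 34 windows, 20.6%, and in 7.15% of all windows, as a description without a test. The members' windows were also richer in CG, with a median of 17.5 dinucleotides beside 7 in all windows, and the motif itself holds a CG. The part of base composition in this share was not tested. The matches included 3 V0 genes, 3 exchangers and 1 V1 gene. The V1 genes Atp6v1b2, Atp6v1c1, Atp6v1g1 and Atp6v1h and the V0 genes Atp6v0a2 and Atp6v0d2 had no window to search. All exchanger genes had one, so these counts do not compare the sectors. The matches are shown with 10 bases on either side, on the gene's strand, with the motif in capitals. Positions are counted in bases from the start site, negative before it.
Atp6v0b, position -36 (chr4:117887350-117887375, minus strand): gcgcgggggtCACGTGgggtcggcgc
Atp6v0b, position -18 (chr4:117887332-117887357, minus strand): gtcggcgcatCACGTGcgccggtcag
Atp6v0d1, position -3 (chr8:105566052-105566077, minus strand): ctactgcggtCACGTGagacgcggtg
Atp6v0e, position 3 (chr17:26676389-26676414, plus strand): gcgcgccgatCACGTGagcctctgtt
Atp6v1a, position -131 (chr16:44139375-44139400, minus strand): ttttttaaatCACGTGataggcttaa
Clcn4, position -153 (chr7:7299695-7299720, minus strand): acagacgggaCACGTGaatccacacg
Clcn6, position -48 (chr4:148038846-148038871, minus strand): tcgagagggcCACGTGaccctcccgg
Clcn6, position -25 (chr4:148038823-148038848, minus strand): cggggccagtCACGTGaggcgcggat
Clcn7, position -15 (chr17:25133366-25133391, plus strand): cgtcgtcagtCACGTGggcaccgatg
Clcn7, position 7 (chr17:25133388-25133413, plus strand): gatgatagatCACGTGagacctgggc
Atp6v0b, Clcn6 and Clcn7 each had 2 matches in 1 window. The windows of Atp6v1e2, Atp6v1e1 and the 3 windows of Atp6v0c had no CACGTG, which says only that these letters are not in these windows. The 7 genes with a match had log2 differences from -0.056 for Atp6v1a to 0.18 for Atp6v0b, and none passed. Tfeb itself was at 1.67 ± 0.400 FPKM in the libraries labelled knockout and 1.36 ± 0.0967 FPKM in controls (SD, n = 3 each). TGACGTCA, the palindrome bound by CREB and CREM, was in 2 of the 34 windows, 1 of Clcn3 and 1 of Clcn4, and in 1.79% of all windows. Both motifs read the same on either strand, and no TGACGTCA lies in the stretch shown for Clcn4. TATAAA, the core of the TATA box, was searched on both strands and was in 2 of the 34 windows, 1 of Atp6v1e1 and 1 of Clcn5, and in 13.6% of all windows.

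Marker lists of testis cell types moved with several members, and their part in the members' values was not tested. The late spermatid list had 29 of 29 tested genes with a negative difference and a median of -0.34, and no gene of it passed. Its level, centred on the 6 libraries, was 0.32, -0.24 and -0.58 in the libraries labelled knockout, against 0.41, 0.23 and -0.14 in controls. Its summed level was 11176 to 21295 FPKM in the libraries labelled knockout and 14803 to 24509 FPKM in controls, and 1 of its 30 genes, Actl7b, was listed at 0 in all libraries. Ordered from high to low, the libraries ran control 1, labelled knockout 1, control 2 and control 3, then labelled knockout 2 and 3. Atp6v1e2 had this order apart from the last 2 libraries, which changed places. Libraries 2 and 3 labelled knockout were also the 2 lowest for Atp6v1a, Atp6v1b1 and Atp6v1h, and for no other tested member. How many of all tested genes had them lowest was not counted.

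Markers of Sertoli cells and macrophages had mostly positive differences. The Sertoli list had 18 of 19 tested genes with a positive difference and a level of -0.16, 0.24 and 0.28 in the libraries labelled knockout, against -0.17, -0.17 and -0.020 in controls. Its summed level was 647 to 864 FPKM in the libraries labelled knockout and 643 to 695 FPKM in controls. The macrophage list had 14 of 14 positive and a level of -0.14, 0.22 and 0.26 in the libraries labelled knockout, against -0.21, -0.15 and 0.016 in controls. Its summed level was 69.7 to 97.6 FPKM in the libraries labelled knockout and 65.7 to 75 FPKM in controls. No gene of either list was at 0 in all libraries and none passed the test. In both lists libraries 2 and 3 labelled knockout were the 2 highest. They were so too for Atp6v0c, Atp6v0a1, Atp6v0d1, Atp6v0e, Atp6v1f, Atp6ap1, Clcn6 and Clcn7, and for no other tested member. For Atp6v1f, library 2 labelled knockout was almost level with control library 1. How many of all tested genes had libraries 2 and 3 labelled knockout highest was not counted. The spermatocyte list had 6 of 19 genes with a positive difference and the Leydig list 3 of 10, with library 3 labelled knockout the lowest for Leydig genes.

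**Figure D4:**
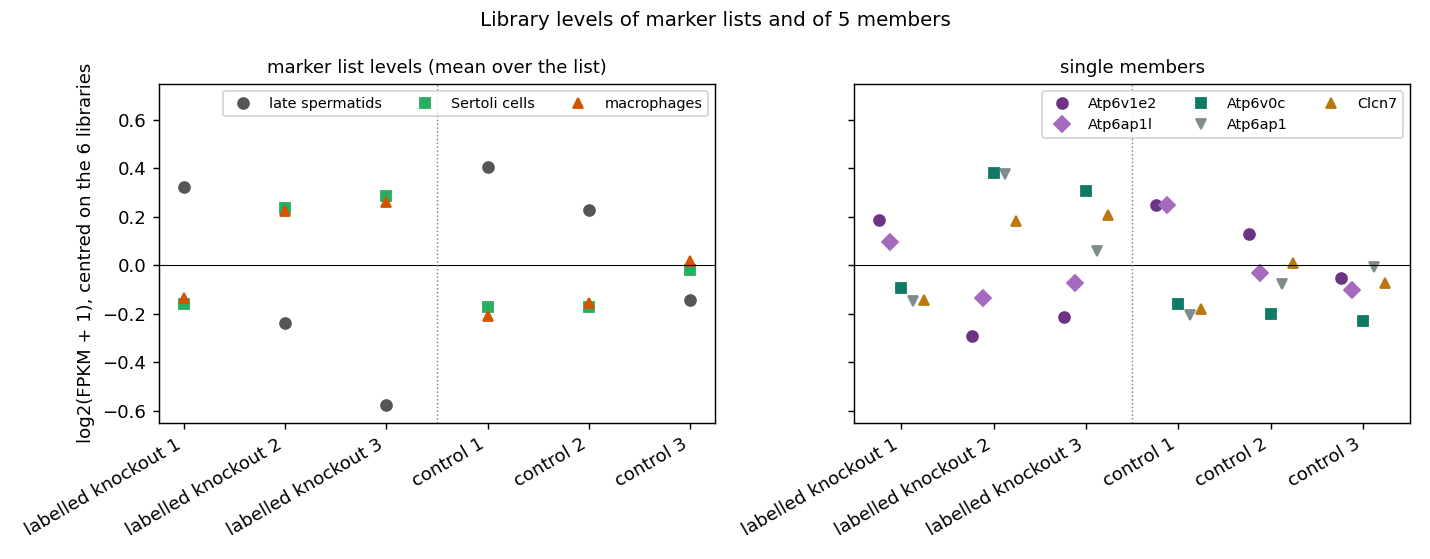
Levels on the log2(FPKM + 1) scale, centred on the 6 libraries, for 3 marker lists (left, mean over the tested genes of the list) and 5 members (right), with the libraries labelled knockout left of the dotted line. Library 1 labelled knockout stands with control libraries 1 and 2 in the marker lists, and libraries 2 and 3 labelled knockout are low for late spermatids and Atp6v1e2 and high for Sertoli cells, macrophages and Atp6v0c.

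Without library 1 labelled knockout, 4 of 28 members (14.3%) had an unadjusted p under 0.05 and none passed after adjustment. In that setting 18.2% of all genes had one, so the members' share lay below that of all genes. The 4 members were Atp6v0c (log2 difference 0.54, limma adjusted p = 0.139), Atp6v1e2 (-0.36, 0.203), Clcn7 (0.28, 0.238) and Atp6ap1 (0.32, 0.27). When any other single library was left out instead, 0 members had an unadjusted p under 0.05. The unadjusted limma p of Atp6v0c was then between 0.050 and 0.082. With the late spermatid level as a covariate in all 6 libraries, the log2 difference was 0.29 for Atp6v0c and -0.050 for Atp6v1e2, and neither passed. For Atp6v0e2 it was 0.51, against 0.20 without the covariate, and this was the only member with an unadjusted p under 0.05 in that setting (0.0266, not passing after adjustment with limma). That is 3.57% of the members, where 3.14% of all genes had such a p in that setting. For Atp6v0e2, library 1 labelled knockout stood apart from the other libraries at 3.29 FPKM. Without that library and without the covariate its log2 difference was -0.12.

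Genes that assemble or regulate the pump were counted as a list of 18, of which 15 were tested, with 7 positive and 8 negative differences and 0 calls. Over this list and the following pair, limma-trend tested 69 genes and called 0. At an unadjusted p under 0.05 it had 2, which is 2.90% beside 3.87% of all genes. Limma-voom tested 73 and called 0, with 2 at that level, 2.74% beside 3.84% of all genes. Ccdc115, an assembly factor of the V0 sector, was at 6.99, 7.46 and 8.37 FPKM in the knockout-labelled libraries, against 6, 6.05 and 6.32 FPKM in controls. Its groups did not overlap and its log2 difference was 0.27 (standard error 0.10, limma adjusted p = 0.868). Tbc1d24, a TLDc-domain protein, was the other gene of the list without overlap (13.3% of the list, beside 8.56% of all genes), at 0.618 ± 0.0521 FPKM in the libraries labelled knockout and 0.486 ± 0.0316 FPKM in controls (SD, n = 3 each). The 3 highest in FPKM were Arl8b, a lysosomal GTPase, Rogdi, a partner of the pump, and Oxr1, which has a TLDc domain. Arl8b was at 30.6 ± 4.24 FPKM in the libraries labelled knockout and 34.6 ± 0.919 FPKM in controls, Rogdi was at 31.2 ± 2.09 FPKM in the libraries labelled knockout and 29.3 ± 3.89 FPKM in controls, and Oxr1 was at 19.9 ± 2.98 FPKM in the libraries labelled knockout and 21.2 ± 0.700 FPKM in controls (SD, n = 3 each).

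Of 14 tested genes for other ion pathways of Golgi, endosome and lysosome, 11 had a positive and 3 a negative difference, with a median of 0.11 and 0 calls. Over all genes tested 48.6% were positive. Groups did not overlap for 3 of the 14, 21.4%, beside 8.56% of all genes in either direction. All 3 were higher in the libraries labelled knockout, where 4.15% of all genes were higher without overlap. The level of this list was -0.053, 0.065 and 0.14 in the libraries labelled knockout, against -0.045, -0.067 and -0.039 in controls, highest in libraries 2 and 3 labelled knockout as for the Sertoli and macrophage markers, whose part in it was not tested. Tmem175, a lysosomal cation channel, was at 15, 16.6 and 16.6 FPKM in the knockout-labelled libraries, against 14.5, 14.9 and 14.6 FPKM in controls. Tpcn2, an endolysosomal cation channel, was at 1.70 ± 0.115 FPKM in the libraries labelled knockout and 1.31 ± 0.202 FPKM in controls, and Slc36a1, a proton-coupled amino acid transporter, was at 2.94 ± 0.678 FPKM in the libraries labelled knockout and 2.35 ± 0.0377 FPKM in controls (SD, n = 3 each). Tmem206, the proton-activated chloride channel, and Tmem165, a Golgi protein needed for glycosylation, were among the 3 highest in FPKM, with log2 differences of 0.12 and 0.087.

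Of 40 tested lysosomal genes, 30 had a positive and 10 a negative difference, with a median of 0.088 and 0 calls. Groups did not overlap for 3, 7.50% of the list beside 8.56% of all genes. Naglu, an enzyme of heparan sulfate breakdown, was at 22.6, 26.9 and 26.8 FPKM in the knockout-labelled libraries, against 20.8, 21.2 and 21.8 FPKM in controls. Psap, the precursor of the saposins, was at 104 ± 18.1 FPKM in the libraries labelled knockout and 86.8 ± 2.38 FPKM in controls (SD, n = 3 each). Lamp1, the lysosomal membrane protein with the highest FPKM of the list, was at 177 ± 4.94 FPKM in the libraries labelled knockout and 184 ± 1.52 FPKM in controls, with a log2 difference of -0.056, and Arsa, an arylsulfatase, was at 83.7 ± 4.95 FPKM in the libraries labelled knockout and 80.9 ± 5.70 FPKM in controls (SD, n = 3 each). Ctsl is in the lysosomal and in the Sertoli list. Naglu and Psap were highest in libraries 2 and 3 labelled knockout, as were the macrophage and Sertoli levels given above, and Lamp1 was lowest in them. The part of those cell types in the values was not tested.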

How the data were processed

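The deposited table holds, per gene, the authors' FPKM in 6 testis libraries and a gene length in bases. Per the labels' protocols, Trizol was used for RNA and a SMARTER mRNA-Seq kit for libraries. The genome was GRCm38 (mm10), per the submitters' processing notes, and what aligned and counted the reads is not stated in the sources used here. Groups and replicate numbers came from sample titles. Members and gene lists were chosen with earlier results of these data known.

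FPKM times gene length came in steps of 1 read in every library, with 100% of values within 0.001 of a whole read. The test was limma 3.58.1 in R 4.3.3 on log2(FPKM + 1), with a mean-variance trend, for genes averaging 0.5 FPKM or more, with Benjamini-Hochberg adjustment. Differences on this scale understate the change of low genes. It was tested on simulated data. For 30 of 32 members, coordinates in GENCODE M21 equal those of the table. From M21 came the principal transcript, overlapping exons and 31-base words shared with other genes (at least 5% of words for 11 members). Named were all members and, of each pathway list, the genes whose groups did not overlap and the 3 highest in FPKM. One lysosomal gene that met this rule is not reported here. Tmc7, Tfeb and cell-type markers are named beside this rule. The list entry Pac1 did not match the table.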

Additional observations from a re-analysis of the deposited data

How the results depend on the processing

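In all 16 alternatives 0 members and 0 named pathway genes passed. The count of all genes called stayed at 0, except for limma-voom on recovered reads, with 1 call and 789 genes at an unadjusted p under 0.05. The call, named after its values were seen, was Srp54b, at 1.43, 2.13 and 1.23 FPKM in the knockout-labelled libraries, against 5.95, 7.75 and 6.12 FPKM in controls (log2 difference -2.09, limma-voom adjusted p = 0.0181), a gene with near-identical copies whose reads may be split. The lowest limma adjusted p of a member was 0.139, for Atp6v0c without library 1 labelled knockout. Same-numbered libraries deviated together with r of 0.286, 0.0413 and 0.198, and library 2 labelled knockout correlated best with control library 3. With 3 libraries per group these values cannot decide whether equal numbers mark pairs, and the labels do not say. With a replicate block 0 genes were called, and 1411 had an unadjusted p under 0.05, 7.36% beside 3.87% without the block. The log2 difference of Atp6v0c with the block was 0.39 (limma adjusted p = 0.662). The sign held in every alternative for 13 members. With the late spermatid level as a covariate, log2 differences turned to -0.014 for Atp6v0a2, -0.021 for Tcirg1, -0.015 for Atp6v0e, 0.044 for Atp6v1b1, 0.0030 for Atp6v1c1, 0.028 for Atp6ap1l, 0.069 for Atp6ap2, 0.031 for Clcn3, -0.019 for Clcn6, 0.0046 for Oxr1 and -0.042 for Tmem165. With FPKM rescaled per library they turned to 0.010 for Atp6ap2 and 0.0081 for Clcn3, and with quantile normalization to 0.011 for Lamp1. Leaving out 1 library at a time gave -0.029 to 0.067 for Atp6v0a2, -0.059 to 0.21 for Tcirg1, -0.12 to 0.36 for Atp6v0e2, -0.13 to 0.0018 for Atp6v1a, -0.00046 to 0.061 for Atp6v1b2, -0.071 to 0.0096 for Atp6v1c1, -0.14 to 0.037 for Atp6v1g1, -0.14 to 0.031 for Atp6ap1l, -0.092 to 0.11 for Atp6ap2, -0.069 to 0.077 for Clcn3, -0.014 to 0.13 for Clcn5, -0.066 to 0.021 for Ostm1, -0.00067 to 0.19 for Rogdi, -0.19 to 0.017 for Oxr1 and -0.10 to 0.19 for Tmem165. The cause was not tested.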
